A study of Mus musculus with 4 samples.

Results

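Surfactant-rich epithelial cells in which no engineered transcript was detected made up 1560 of the 23576 cell barcodes in 4 single-cell RNA libraries of mouse lung adenocarcinoma. They were chosen on measured values. Each cell had at least 1000 unique molecular identifiers (UMIs, one per counted RNA molecule), 500 or more detected genes and no more than 20% of UMIs from mitochondrial genes. It had no UMI of the leukocyte gene Ptprc, at least 2 UMIs summed over the epithelial genes Epcam, Krt8, Krt18 and Cdh1, and at least 5% of its UMIs from Sftpc. It had 0 UMIs of CRE-ERT2, the tamoxifen-dependent recombinase, and of UPRT_short, an added feature the files do not describe. Cells with 3 or more UMIs of Bex2 and Dlk1 together, 5 or more of Gkn2 or 3 or more of Ctse were left out. The members numbered 207 in KP pre-depletion, 52 in KPF1F2 pre-depletion, 872 in KP post-depletion and 429 in KPF1F2 post-depletion, out of 749, 223, 3434 and 2103 epithelial cells. Their median depths were 12929, 28907.5, 7911.5 and 18249 UMIs in that order, so KP members were the shallower in both states.

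The tumours grew in mice of a mixed 129/B6 background that carried, among other alleles, p53frt and Rosa-FSF-CreERT2. KP mice were also Foxa1flox/+ and Foxa2flox/+, and KPF1F2 mice were labelled Foxa1flox and Foxa2flox. Tumours were started with Ad5-mSPC-FlpO, an adenovirus that makes Flp recombinase under the surfactant protein C promoter, and Flp acts on the FSF and frt alleles. All 4 groups received tamoxifen at 120 mg/kg in 4 daily injections, 10 weeks after initiation, and were collected at week 12. KP tumours are therefore no untreated control, because they too got tamoxifen and carry floxed alleles. Dissected tumours were digested, and the post-depletion cells had passed magnetic removal of CD45-positive and CD31-positive cells. Each group is 1 library, and differences between groups were not tested. The states of a genotype were not used as replicates, because the labels do not say whether they came from separate mice. All intervals are at 95% and cover counting error only. The titles of 3 libraries share a prefix and that of KPF1F2 pre-depletion has another, whose meaning is not given, so whatever it marks cannot be told apart from genotype pre-depletion. Xist, of the inactive X chromosome, stood at 612 and 874 CPM (UMIs summed over the members of a library and scaled to the same total in each) in KP members and 1.30 and 0.723 CPM in KPF1F2 members. Ddx3y, of the Y chromosome, had 0 UMIs in KP members and stood at 27.4 and 38.8 CPM in KPF1F2 members, so sex and genotype cannot be told apart here.

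Alveolar type 2 cells line the air sacs of the lung, store surfactant lipid and protein in lamellar bodies and secrete it to keep the sacs open. They renew themselves and give rise to the flat type 1 cells, and they are a cell of origin of lung adenocarcinoma. Nkx2-1, a homeobox factor, and the fork head factors Foxa1 and Foxa2 are known regulators of surfactant genes in this lineage.

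The promoters of type 2 markers are printed because the 2 genotypes differ in fork head genes. Of 8 markers looked up (Sftpa1, Sftpb, Sftpc, Sftpd, Lamp3, Napsa, Cxcl15 and Hc), 5 were in the RefSeq promoter table of GRCm38.p6. Each sequence holds the 250 bases before the annotated start, 5′ to 3′ on the gene's strand. Capitals mark the letters searched on both strands, which were TGTTTAC or TGTTTGC or TATTTAC for fork head factors and CAAGTG or CTCAAG for NKX2-1. No motif overlapped another of these in the sequences shown.
Sftpb, chromosome 6, 72304360 to 72304609, plus strand: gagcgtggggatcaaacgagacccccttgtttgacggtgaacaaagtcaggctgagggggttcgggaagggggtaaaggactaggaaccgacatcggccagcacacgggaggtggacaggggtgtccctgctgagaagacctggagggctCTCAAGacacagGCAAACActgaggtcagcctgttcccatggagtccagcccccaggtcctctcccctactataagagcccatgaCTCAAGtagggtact
Sftpa1, chromosome 14, 41131538 to 41131787, plus strand: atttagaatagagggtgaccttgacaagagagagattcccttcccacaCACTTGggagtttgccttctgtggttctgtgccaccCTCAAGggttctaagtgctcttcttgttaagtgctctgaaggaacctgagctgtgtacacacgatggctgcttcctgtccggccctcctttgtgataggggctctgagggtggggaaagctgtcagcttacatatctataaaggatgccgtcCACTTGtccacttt
Cxcl15, chromosome 5, 90794284 to 90794533, plus strand: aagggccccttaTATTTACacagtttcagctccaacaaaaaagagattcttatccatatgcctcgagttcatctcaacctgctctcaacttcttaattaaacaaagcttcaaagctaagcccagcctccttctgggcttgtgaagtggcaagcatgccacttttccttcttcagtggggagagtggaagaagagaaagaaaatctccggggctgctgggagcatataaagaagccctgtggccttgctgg
Sftpb held 1 fork head match on the minus strand and 2 NKX2-1 matches on the plus strand. Sftpa1 held 3 NKX2-1 matches and no fork head match, and Cxcl15 held 1 fork head match alone. Lamp3 held 1 fork head match, and Hc held none of these letters. Among all 32851 promoters of this length, 9.73% held a fork head match, 22.6% an NKX2-1 match and 2.22% both. A match describes letters and does not show a bound site.

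Type 2 genes outside the gate were abundant in members of every library. Sftpa1, surfactant protein A, stood at 20686 CPM in KP pre-depletion, 27741 in KPF1F2 pre-depletion, 17883 in KP post-depletion and 26714 in KPF1F2 post-depletion members. Lamp3, a lamellar body membrane protein, stood at 1301, 1389, 939 and 1283 CPM in the same order, and Hc, complement component C5, at 1087, 1249, 672 and 1521 CPM. Cxcl15, a chemokine of lung epithelium also called lungkine, stood at 4110, 10776, 2911 and 8393 CPM. Sftpc itself, which set the gate, took a median of 15.6%, 18.4%, 17.3% and 15.5% of a member's UMIs. Nkx2-1 was present at 219, 202, 209 and 162 CPM. In Ptprc-positive cells pre-depletion Cxcl15 was at 340 (KP) and 62.8 CPM (KPF1F2), and in epithelial cells with a CRE-ERT2 UMI at 1660 and 719. Post-depletion the Ptprc-positive cells numbered only 20 and 37 and held much epithelial RNA, with Sftpc at 58179 and 10869 CPM.

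**Figure D1:**
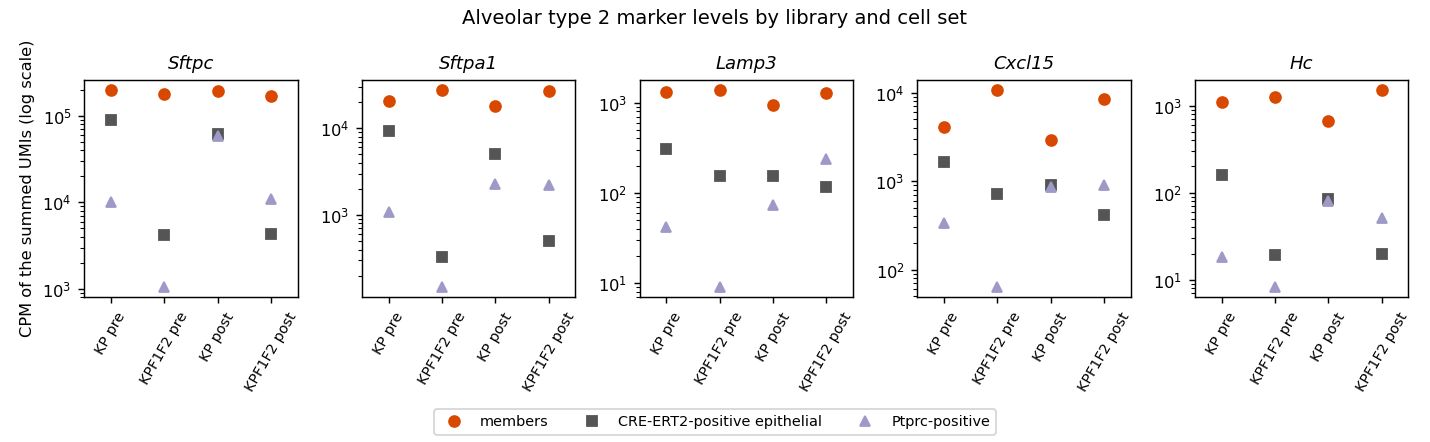
Levels of 5 type 2 markers, in CPM of summed UMIs on a log axis, in each of the 4 libraries for members (circles), epithelial cells with a CRE-ERT2 UMI (squares) and Ptprc-positive cells (triangles). Members lie highest for all 5 genes in all 4 libraries, which for Sftpc the gate fixed, at 2911 to 10776 CPM for Cxcl15. Within each state the KPF1F2 members lie above the KP members for Cxcl15, Sftpa1, Lamp3 and Hc, when all members are taken.

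The 5% Sftpc threshold did not fall in a gap of the data. Among KP post-depletion epithelial cells with no engineered transcript, 103 lay between 4% and 5% Sftpc. They were counted before the exclusions on Bex2, Dlk1, Gkn2 and Ctse. Members between 5% and 6%, counted after those exclusions, numbered 60, so the sets just outside and just inside were not chosen alike. Sftpa1 was at 3145 CPM just outside and 3053 just inside. In KPF1F2 post-depletion those cells numbered 37 and 27, with Sftpa1 at 2358 and 9347 CPM. Of Sftpc-rich cells, the exclusions on Bex2, Dlk1, Gkn2 and Ctse removed 118 and 466 in KP and 2 and 9 in KPF1F2, so that condition removed more KP than KPF1F2 cells. UPRT_short had 0 UMIs in the surfactant-high cells of both KP libraries, and that condition therefore acted on KPF1F2 only. No member barcode was shared between libraries.

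CRE-ERT2 was detected less often in surfactant-high cells of KPF1F2 than of KP, except between 10000 and 20000 UMIs pre-depletion, where the shares were 6% of 50 KP cells and 16.7% of 12 KPF1F2 cells. Among surfactant-high cells, the members plus those with an engineered transcript, CRE-ERT2 was detected in 20.4% (15.7 to 25.8) in KP pre-depletion and 16.4% (14.2 to 18.8) in KP post-depletion. It was detected in 5.45% (1.14 to 15.1) and 4.71% (2.98 to 7.05) in KPF1F2. In KP post-depletion the share climbed with depth, from 7.86% at 1000 to 5000 UMIs to 42.1% (30.9 to 54.0) at 20000 to 40000 UMIs. In KPF1F2 post-depletion it was 2.47% in the shallowest band and 5.81% (2.69 to 10.7) at 20000 to 40000 UMIs. Epithelial cells of the same depth band with under 0.5% Sftpc gave 55.1% in KP and 47.8% in KPF1F2. The exclusions on Bex2, Dlk1, Gkn2 and Ctse were applied to the surfactant-high cells only, so these sets were not chosen alike. Before those exclusions, KP post-depletion cells at 5% to 10%, 10% to 15% and 15% or more Sftpc gave 28.3%, 28.7% and 20.7%, against 16.4% after them. With each cell thinned to 5000 UMIs, the surfactant-high share was 8.65% in KP and 1.30% in KPF1F2 post-depletion, leaving out 280 and 81 shallower cells. As a background, Ptprc-positive cells pre-depletion, at medians of 9894 and 7850 UMIs, gave 2.18% in KP and 0.247% in KPF1F2. Post-depletion the few such cells gave 45% of 20 in KP and 24.3% of 37 in KPF1F2 (12.5% of 16 and 0 of 23 thinned), so they offer no low background for those libraries.

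**Figure D2:**
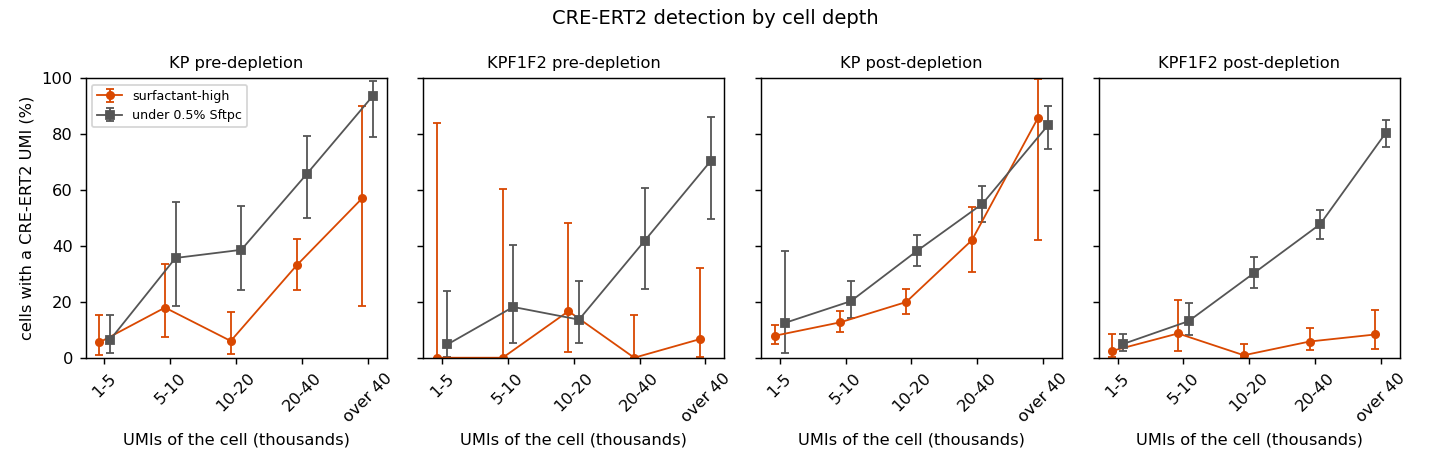
Percent of cells with a CRE-ERT2 UMI (y) against the depth band of the cell in UMIs (x) for surfactant-high cells (circles) and epithelial cells with under 0.5% Sftpc (squares), 1 panel per library, with exact binomial 95% intervals. The exclusions on Bex2, Dlk1, Gkn2 and Ctse were applied to the circles only. In KPF1F2 post-depletion the surfactant-high share stays at 8.70% or less in every band while the other cells reach 80.6%; in KP post-depletion the 2 climb together, and bands of few cells have wide intervals.

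The Sftpc-richest cells had CRE-ERT2 less often than the Sftpc-poorest cells in both genotypes, with the lower share in KPF1F2. In KPF1F2 post-depletion epithelial cells, the share with a CRE-ERT2 UMI went from 39.5% of 1295 cells under 0.5% Sftpc to 11.9% of 134 cells at 5% to 10% and 1.67% (0.458 to 4.23) of 239 cells at 15% or more. In KP post-depletion the matching shares were 45.01% of 842 cells, 28.3% of 367 and 20.7% (17.9 to 23.6) of 828. The median depth of the 15% band post-depletion was 26813 UMIs in KPF1F2 and 12320 in KP, so the lower share in KPF1F2 was found in the deeper cells.

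Foxa1_2, a piece of the Foxa1 gene that was nearly undetected in CRE-ERT2-positive KPF1F2 cells, was present in KPF1F2 members. Foxa1 is entered in these matrices as the pieces Foxa1_1 and Foxa1_2, whose extents the files do not give. Foxa1_2 stood at 16.4 CPM (12.2 to 21.6) in KP and 21.5 (14.8 to 30.2) in KPF1F2 members pre-depletion, and at 12.9 (10.5 to 15.7) and 13.3 (11.1 to 15.8) post-depletion. All 4 intervals overlap. CRE-ERT2-positive epithelial cells held it at 17.7 and 16.8 CPM in KP, with 0 UMIs in KPF1F2 pre-depletion and 0.398 CPM in KPF1F2 post-depletion. KPF1F2 members were thus 33.5-fold (17.6 to 71.4) above those cells post-depletion, on 129 against 10 UMIs. Pre-depletion the 33 member UMIs stood against 0, and the 95% interval of that ratio begins at 11.8-fold. Foxa1_1 went the other way, at 1.03 CPM in KPF1F2 members and 9.64 in CRE-ERT2-positive cells post-depletion. The Foxa2 pieces had 2 UMIs over all members, both of Foxa2_1 in KP post-depletion, so Foxa2 could not be judged.

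UMIs of Cdkn2a, Meg3, Basp1 or Bgn were detected in most KP members and in fewer KPF1F2 members. Cdkn2a encodes the p16 and Arf tumour suppressors, Meg3 is an imprinted noncoding RNA, Basp1 a membrane-bound signalling protein and Bgn the proteoglycan biglycan. These 4 genes were chosen after their values were seen. A UMI of at least 1 of them was present in 58.0% of KP and 17.3% of KPF1F2 members pre-depletion, and in 81.1% and 22.8% post-depletion, against 90.2%, 71.2%, 97.1% and 68.2% of CRE-ERT2-positive epithelial cells in library order. Meg3 alone was found in 62.6% of KP and 10.7% of KPF1F2 members post-depletion, and in 55.5% and 5.63% after thinning to 5000 UMIs. In CRE-ERT2-positive cells post-depletion Meg3 was found in 85.1% in KP but only 7.74% in KPF1F2 (71.8% and 4.19% thinned). For Meg3 the KPF1F2 members thus had no lower share than those cells post-depletion, though they did pre-depletion. Pre-depletion Meg3 was found in 33.8% of KP and 7.69% of KPF1F2 members, and in 29.0% and 6.0% after thinning. CRE-ERT2-positive cells pre-depletion gave 77.7% and 13.5% (65.7% and 7.84% thinned), and thinned Ptprc-positive cells gave 10.96% and 0.520%. For Cdkn2a the thinned shares in KP pre-depletion were 14.2% of members and 12.2% of Ptprc-positive cells. In KPF1F2 pre-depletion they were 2.0% and 8.27%. Members were thus near those cells in KP and below them in KPF1F2, and whether those cells give a background for Cdkn2a was not tested. Basp1 was found, thinned, in 53.5% (KP) and 55.5% (KPF1F2) of Ptprc-positive cells pre-depletion, against 14.8% and 2.0% of members. It is therefore no mark of tumour cells alone. Post-depletion KP members held 162 CPM of Cdkn2a and KPF1F2 members 2.48 CPM.

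Few genes separated members from surfactant-high cells with an engineered transcript in every library compared. The choice of cells fixed their transgene difference, so the following is a description. In the 3 libraries with enough cells on both sides, 2 of 5024 genes were at least 2-fold higher in members in all 3 (0.0398%) and 5 at least 2-fold lower (0.0995%), of which 1 was CRE-ERT2 itself. The higher genes were Cyp2b10, a cytochrome P450, at 107 against 34.9 CPM in KP pre-depletion, 46.0 against 16.5 in KP post-depletion and 44.6 against 1.02 in KPF1F2 post-depletion, and Sec14l3, a lipid-binding protein. The other lower genes were S100a6 and S100a14 of the S100 calcium-binding family, Cda, which deaminates cytidine, and Ifitm3, an antiviral membrane protein. S100a6 stood at 205 against 716 CPM, 394 against 923 and 180 against 2097 in those libraries. Within a library, 50 genes differed 2-fold in KP pre-depletion, 40 in KP post-depletion and 195 in KPF1F2 post-depletion, the last against only 38 cells with an engineered transcript. In KP such cells numbered 53 and 171. With both sides limited to cells of 10000 UMIs or more, the counts were 65, 48 and 195.

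Against all CRE-ERT2-positive epithelial cells more genes differed, in a contrast that the gate itself set. In all 4 libraries, members exceeded these cells 2-fold or more for 107 of 5482 genes (1.95%) and fell short of them by that much for 399 (7.28%). The higher side was led by Lyz1, a lysozyme, and Cyp2b10, and also held Chia1, an acidic chitinase, Retnla, a secreted resistin-like protein, and Hc. Their log2 differences (1 CPM added to each side) in the library order KP pre, KPF1F2 pre, KP post and KPF1F2 post were 3.62, 3.95, 3.36 and 4.22 for Lyz1 and 2.78, 5.92, 2.96 and 6.19 for Hc. On the lower side were the mast cell protease gene Mcpt1, at 7.08 CPM in KP and 2.38 in KPF1F2 members post-depletion against 702 and 879 in CRE-ERT2-positive cells, the fibulin gene Fbln2 and Procr, the protein C receptor. In CRE-ERT2-positive cells Hc was at 158, 19.6, 85.6 and 19.8 CPM and Retnla at 351, 52.7, 105 and 36.9 CPM in that library order, lower in KPF1F2 than in KP. Those cells differed in surfactant content between genotypes. At 15% Sftpc or more were 63 of 256 and 171 of 990 of them in KP, against 0 of 52 and 4 of 594 in KPF1F2. The part of this in the log2 differences and levels was not tested.

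Between genotypes, KPF1F2 members held more Retnla, Chia1, Smim6, Cxcl15 and Gclc and less of the clock genes Dbp, Tef and Per3. Genotype folds set KPF1F2 over KP on the log2 scale after adding 1 CPM to each side, for the 4891 genes whose 4 sums averaged 20 CPM or more. KPF1F2 exceeded KP at least 2-fold in pre- and post-depletion members for 77 of these genes (1.57%), and KP exceeded KPF1F2 for 49 (1.00%), while 2 genes passed 2-fold in opposite directions. Weighting every cell equally gave 95 and 94, so the share of called genes that were higher in KPF1F2 went from 61.1% to 50.3%. Post-depletion alone, 152 (3.11%) were higher and 103 (2.11%) lower. For scale, 39 genes differed 2-fold between the 2 KP libraries and 81 between the 2 KPF1F2 libraries. Across genes, which are not independent replicates, the folds of the 2 states correlated at r = 0.710.

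**Figure D3:**
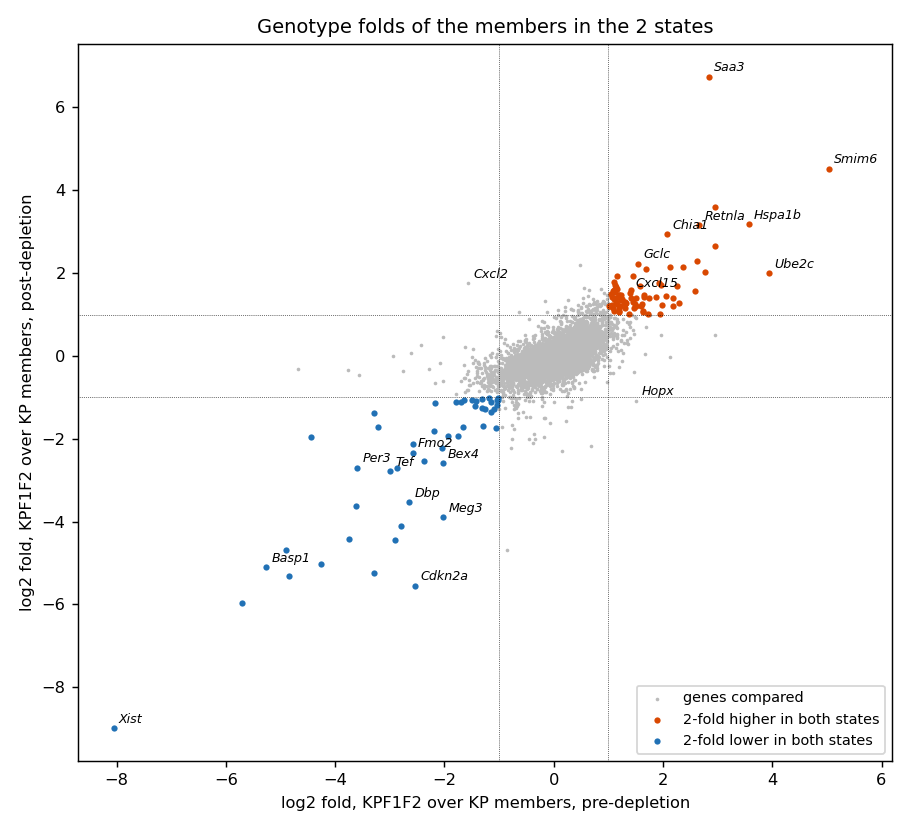
Log2 folds of KPF1F2 over KP members, pre-depletion (x) against post-depletion (y), for 4891 genes, with dotted lines at 2-fold. The 77 genes past 2-fold upward in both states (orange) include Smim6, Saa3 and Retnla, the 49 downward (blue) include Dbp, Tef and Basp1, and Hopx and Cxcl2 lie past 2-fold in opposite corners.

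Retnla (ENSMUSG00000061100, GRCm38 chromosome 16, 48842551 to 48844461) encodes a small secreted protein of airway epithelium and alternatively activated macrophages. Pre-depletion, KP members held 2441 CPM of it and KPF1F2 members 15396 CPM, and post-depletion 1738 and 15450 CPM. Both KPF1F2 values lie above both KP values, with ratios of 6.31 (6.15 to 6.47) and 8.89 (8.73 to 9.05). Smim6 (chromosome 11, 115912017 to 115913920), a small membrane protein, had 7, 162, 22 and 842 UMIs in the 4 sums, and was found in 2.41% of KP and 61.8% of KPF1F2 members post-depletion. Chia1 stood at 254, 1071, 131 and 1014 CPM. Gclc, the catalytic subunit that limits glutathione synthesis, stood at 143, 417, 91.2 and 432 CPM.

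The rest of the 12 leading higher genes were Saa3, Slc26a4, Kcne2, Ube2c, Itga7, Birc5, Phgr1 and Cxcl17. Slc26a4, the anion exchanger pendrin, stood at 50.8, 317, 49.3 and 244 CPM, and Kcne2, a potassium channel subunit, at 14.8, 67.8, 11.7 and 55.1 CPM. Cxcl17, a mucosal chemokine, stood at 96.5, 289, 68.4 and 221 CPM. Saa3, an acute-phase protein, rested on few cells: it had 1 UMI in KP and 1162 in KPF1F2 post-depletion (ratio 933, interval 167 to 36870), but only 18 of 429 KPF1F2 members had a UMI. Ube2c and Birc5, genes of mitosis, came from few cells as well, with Ube2c found in 3.73% of KPF1F2 and 2.98% of KP members post-depletion.

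Retnla UMIs came mostly from a minority of members in every library, so its sum describes some cells and not the typical one. The 10% of members with the most Retnla held 98.9% of its UMIs in KP pre-depletion, 75.1% in KPF1F2 pre-depletion, 98.6% in KP post-depletion and 89.6% in KPF1F2 post-depletion. Cells in which Retnla took at least 1% of UMIs made up 4.35% (2.01 to 8.09), 19.2% (9.63 to 32.5), 4.13% (2.91 to 5.67) and 20.3% (16.6 to 24.4) of members. After thinning to 5000 UMIs, 22.1% of KP and 47.0% of KPF1F2 members had a Retnla UMI post-depletion, and 21.9% and 42.0% pre-depletion. Thinned Ptprc-positive cells gave 4.62% and 7.92% pre-depletion. Within each library, Chia1 was far higher in the cells at 1% Retnla than in other members, at 2910 against 71.9 CPM in KP pre-depletion, 3831 against 197 in KPF1F2 pre-depletion, 2076 against 35.1 in KP post-depletion and 3483 against 185 in KPF1F2 post-depletion. Lyz1 was lower in those cells than in other members in 3 libraries, at 899 against 4143 CPM in KPF1F2 post-depletion, and higher in KPF1F2 pre-depletion, at 3441 against 2109 CPM.

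Cxcl15 was present in most members, and its median per cell also differed. Its median per cell was 2603 CPM in KP and 8306 in KPF1F2 members pre-depletion, and 1883 and 6672 post-depletion. The top 10% of members held 30.2% to 41.8% of its UMIs.

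**Figure D4:**
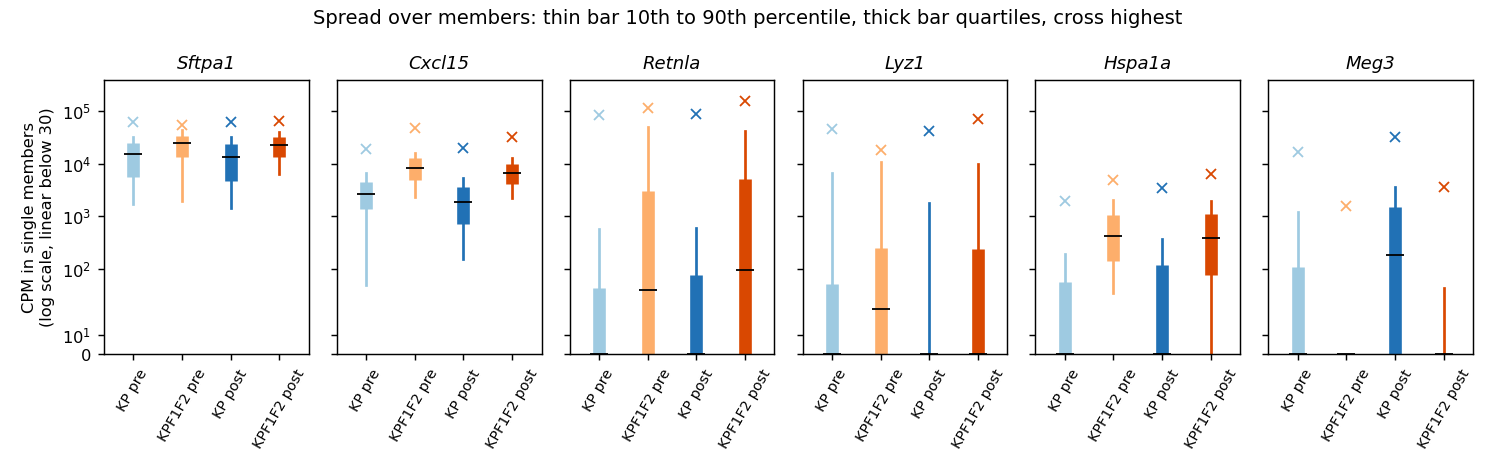
Levels in single members, in CPM on a log axis that is linear below 30, for 6 genes in the 4 libraries; black ticks are medians, thick bars quartiles, thin bars the 10th to 90th percentile and crosses the highest cell. Sftpa1 and Cxcl15 are present across the members, with Cxcl15 medians of 1883 to 8306 CPM, while Retnla and Lyz1 have medians of at most 95.5 CPM and reach 18694 to 155568 CPM in the highest cell of a library.

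A few type 2 genes were 2-fold higher in KPF1F2 members, and no surfactant or lamellar body gene was. Of 23 measured genes in the list of other type 2 genes, 4 were 2-fold higher and 1 lower in both states, with medians of 0.42 pre-depletion and 0.65 post-depletion. All genes compared had medians of 0.09 and −0.01, with 1.57% higher and 1.00% lower in both states. Besides Cxcl15, the higher type 2 genes were Chil1, a chitinase-like protein (2340, 6614, 2381 and 5467 CPM), S100g, a calcium-binding protein (878, 1946, 506 and 1606 CPM), and Scd1, a fatty acid desaturase (4475, 9636, 2986 and 7721 CPM). The lower one was Bex4 on the X chromosome, at 118, 28.0, 147 and 23.5 CPM. Of 13 measured surfactant and lamellar body genes, 0 passed 2-fold in both states, and their medians were 0.32 and 0.35. That list holds Sftpc, whose share of UMIs the gate used in both genotypes, so its fold was constrained by the choice of cells. Sftpa1 is in both this list and that of other type 2 genes, so the lists overlap. Sftpd, surfactant protein D, stood at 6351, 9087, 6020 and 9985 CPM. Without members that had a Cdkn2a, Meg3, Basp1 or Bgn UMI, the surfactant medians were 0.30 and 0.02, against 0.15 and 0.10 for all genes. In that setting Cxcl15 alone of the 4 type 2 genes passed 2-fold in both states, since Chil1 (0.93) and Scd1 (0.75) missed it post-depletion and S100g (0.996) pre-depletion.

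Of 15 measured cholesterol synthesis genes, 4 were 2-fold higher in both states and 0 lower, all 15 had a positive fold in both, and the medians were 0.92 and 1.02. Over all genes 1.57% were higher in both states. Without members that had a Cdkn2a, Meg3, Basp1 or Bgn UMI, 0 of the 15 passed in both states and the medians were 0.91 and 0.38. Idi1, the isoprenoid isomerase, stood at 86.9, 188, 48.8 and 149 CPM, and Msmo1, a sterol oxidase, at 41.8, 128, 27.6 and 65.1 CPM. Of 18 fatty acid and phospholipid genes 1, Scd1, was 2-fold higher, with medians of 0.35 and 0.32. Complement and airway defence genes had 3 of 13 higher (Saa3, Retnla and Chil1) and 0 lower, with medians of 0.67 and 1.18, and in that same setting 2 of 13 (without Chil1) with medians of 0.41 and 0.54. Antigen presentation genes had none past 2-fold: 0 of 13 MHC class I genes, with medians of 0.51 and 0.42, and 0 of 7 class II genes, with 0.64 and 0.25. H2-K1, a class I heavy chain, stood at 1380, 2476, 1020 and 1672 CPM.

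Cell division genes had 6 of 11 measured higher in both states, against 1.57% of all genes compared, with medians of 1.10 and 1.40. Their UMIs came from few cells. A Mki67 UMI was found in 3.86% of KP and 7.69% of KPF1F2 members pre-depletion, and in 3.90% and 6.53% post-depletion. After thinning these shares were 1.94%, 4.0%, 2.61% and 3.1%, against 10.5% and 8.61% of Ptprc-positive cells pre-depletion. Without members that had a Mki67 or Top2a UMI, the list's post-depletion median was −0.084.

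Among clock genes, Dbp, Tef, Per2, Per3, Cry2 and Nr1d2 were 2-fold lower and Nr1d1 and Nfil3 2-fold higher in KPF1F2 members in both states. This list of 19 genes was drawn up after the values were seen, and 12 were measured, of which 6 were 2-fold lower and 2 higher in both states, with medians of −1.36 and −0.96. Of all genes compared 1.00% were lower and 1.57% higher in both states. Dbp, a clock-output factor (chromosome 7, 45705088 to 45710203), was at 91.0 and 13.7 CPM in KP and KPF1F2 members pre-depletion and at 89.6 and 6.82 post-depletion. Tef stood at 74.95, 8.48, 62.7 and 8.27 CPM, and Per3 at 66.3, 4.56, 54.5 and 7.54. Arntl, the clock activator also called Bmal1, had 1, 21, 10 and 105 UMIs in the 4 sums, too few to be among the 12. Nr1d1, a clock repressor, stood at 15.4, 35.9, 10.0 and 41.0 CPM. The same direction was seen in cells that are not members: Dbp stood at 45.6 and 7.46 CPM in CRE-ERT2-positive cells and at 13.7 and 2.05 in Ptprc-positive cells pre-depletion, giving KP first. The hour of collection is not given in the sources used here, and its part was not tested.

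Of the 22 immediate early and heat shock genes, 4 were 2-fold higher in KPF1F2 members in both states (Hspa1a, Hspa1b, Hspb1 and Atf3) and 0 lower, with list medians of 0.43 and 0.27. Of all genes compared 1.57% were higher and 1.00% lower in both states, with medians of 0.09 and −0.01. Hspa1b, an inducible chaperone, was at 27.0 and 331 CPM in KP and KPF1F2 members pre-depletion and at 48.7 and 450 post-depletion. Pre-depletion it was at 16.3 and 185 CPM in Ptprc-positive cells and at 172 and 619 in CRE-ERT2-positive cells, again higher in KPF1F2. Hspd1, a mitochondrial chaperone outside the list and chosen after its values were seen, had log2 folds of −0.45 and −0.19 in members. The handling of the samples was not tested.

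On the lower side, besides the clock genes Tef, Per3, Dbp, Per2 and Nr1d2 and besides Bex4, the genes named by rule, which leaves out, among others, those higher in Ptprc-positive cells, included Fmo2, F2r, Tspan4, Zfp704 and Fkbp11. Fmo2, a lung flavin monooxygenase, stood at 44.1, 6.52, 82.8 and 15.6 CPM, and F2r, the thrombin receptor, at 38.3, 8.48, 37.2 and 7.23 CPM. Of 25 lung transcription factors measured, 1 was 2-fold lower in both states, Foxp2, at 26.1, 12.4, 33.6 and 16.0 CPM, and 0 higher. Of all genes compared 1.00% were lower, and 1 gene of 25 is too few to set against that share. Without members that had a Cdkn2a, Meg3, Basp1 or Bgn UMI, Foxp2 had log2 folds of −0.76 and −0.61 and no factor passed. The 7 genes abundant in CRE-ERT2-positive KP cells (Basp1, Bgn, Apob, Ckb, St8sia6, Cdkn2a and Meg3), also chosen after their values were seen, were all 2-fold lower in both states, with medians of −3.28 and −5.01. Basp1 was at 87.5 and 1.30 CPM in KP and KPF1F2 members pre-depletion and at 207 and 5.06 post-depletion. Basp1 and Cdkn2a were also abundant in CRE-ERT2-positive KPF1F2 cells, Basp1 at 664 and 597 CPM and Cdkn2a at 531 and 493 CPM, whereas Meg3 was at 43.8 and 18.4 CPM there.

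**Figure D5:**
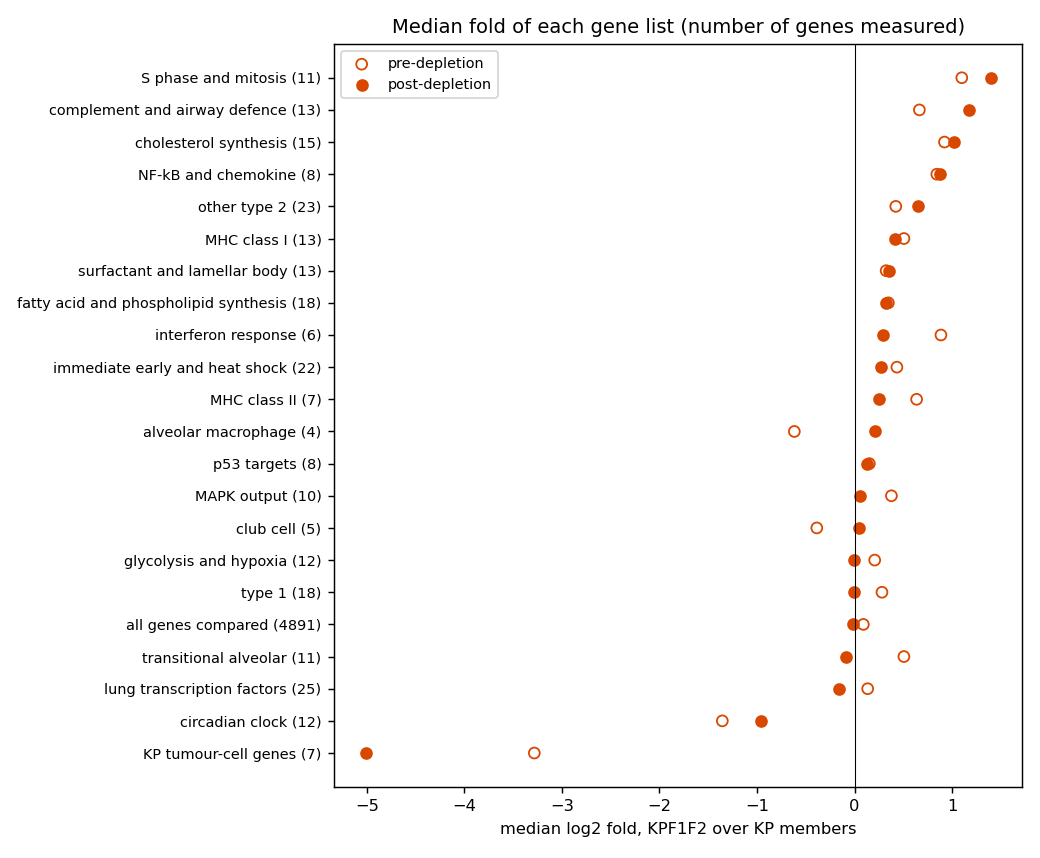
Median log2 fold of KPF1F2 over KP members for each list with at least 4 genes measured (number in brackets), pre-depletion (open) and post-depletion (filled). Cell division, airway defence and cholesterol synthesis lie farthest right post-depletion, at medians of 1.40, 1.18 and 1.02, while the clock genes and the 7 genes abundant in CRE-ERT2-positive KP cells, both chosen after their values were seen, lie left of 0.

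Leaving out every member with a UMI of Cdkn2a, Meg3, Basp1 or Bgn changed part of this picture. That left 87 KP and 43 KPF1F2 members pre-depletion and 165 and 331 post-depletion. Of 4712 genes, 78 were then higher and 28 lower in both states, of which 52 and 17 were among the 77 and 49. Retnla had log2 folds of 1.65 and 2.69 and Cxcl15 of 1.31 and 1.47 in these cells, against 2.66 and 3.15 and 1.39 and 1.53 over all members. Smim6 had 4.51 and 5.24, and Dbp −3.32 and −3.82. Among the other type 2 markers, Sftpa1 had 0.30 and 0.24, Lamp3 0.04 and −0.04 and Hc −0.01 and 0.72. Lamp3 and Hc were thus no longer higher in KPF1F2 in both states. The MHC class I median was 0.41 pre-depletion and 0.11 post-depletion. The median of other type 2 genes was 0.30 and 0.33, and of all genes 0.15 and 0.10. Zfp704, at −0.91 and −0.81, no longer passed 2-fold in either state, and Fmo2, at −0.94, no longer passed it post-depletion. Deep cells are more likely to show such a UMI, so this choice depends on depth.

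Markers of leukocytes, endothelial cells and fibroblasts were low in members, whereas those of type 1 cells were not. Genes of airway club cells were not low either, but Ptprc-positive cells pre-depletion held them at sums of the same order. Type 1 genes summed to 3982, 5410, 4325 and 4494 CPM in library order, and club cell genes to 2050, 1878, 2569 and 2714 CPM. In Ptprc-positive cells pre-depletion, KP first, type 1 genes summed to 922 and 785 CPM and club cell genes to 1292 and 1550. The top 10% of members held 64.0%, 71.1%, 77.4% and 86.2% of the UMIs of the club cell gene Scgb1a1 in library order. A UMI of the type 1 gene Ager was found in 88.4%, 98.1%, 90.3% and 97.9% of members. The summed level of 12 alveolar macrophage genes was 628 and 463 CPM pre-depletion in KP and KPF1F2 and 435 and 268 post-depletion, against 25983 and 34457 in Ptprc-positive cells pre-depletion. At 0 UMIs in members were 1, 1, 4 and 6 of the 12 in library order. Chil3, their chitinase-like product, was at 154 and 74.3 CPM pre-depletion and at 0 and 0.517 post-depletion, so Chil3 in members differed between states. Whether it came from free RNA or attached cells was not tested. Leukocyte genes summed to 187, 138, 81.4 and 66.7 CPM with 3, 1, 7 and 5 of 10 at 0. Those at 0 include Ptprc, which the gate fixed at 0 in every library. Endothelial genes summed to 31.5, 33.9, 29.1 and 29.9 CPM with 1, 4, 2 and 5 of 8 at 0. Fibroblast genes, a list that holds Bgn, summed to 109, 5.87, 290 and 63.3 CPM, with 2, 4, 0 and 0 of 9 at 0. Without the 7 members over 0.5% macrophage and leukocyte UMIs, 77 genes were higher and 48 lower.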

How the data were processed

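The deposited matrices hold UMI counts per gene and barcode, which the file headers credit to Cell Ranger 6.0.0 (deposited counts, per the file headers), from 10x Genomics 3′ version 3.1 libraries per the labels' protocols, on mm10 per the submitters' processing notes. Annotation, settings and strand use: not given in the sources used here. They hold 28006 features, and 27645 of them matched GENCODE release 21 by identifier, and 231852316 UMIs, 47805086 to 63010016 per library. Groups came from the labels, with 1 library each.

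From the deposited counts, UMIs were summed over members (1533765 to 9675544 per library) and scaled to CPM. Genes averaging 20 CPM or more were compared by log2 fold with 1 CPM added to each side and called at 2-fold, with no test. Intervals are exact Poisson (CPM), exact conditional binomial (count ratios, no CPM added) and Clopper-Pearson (shares), at 95%. A count of 0 was given a limit of 3 counts. Shares were also given after thinning each cell to 5000 UMIs. No cells were removed as doublets: the scrublet caller (scanpy 1.11.5) called fewer than 0.5% of the cells of each library and was taken not to have worked, so the highest-scoring 0.8% of cells per 1000 barcodes were removed as an alternative. Scaling alternatives used edgeR 4.0.16 (TMM) and DESeq2 1.42.0 (size factors). The fold and interval code was tested on simulated data.

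Members, lists and the naming rule were chosen with earlier results of these data known. Named were the listed markers, then the 12 genes each way with the largest smaller fold of the 2 states, past 2-fold in both and past both same-genotype differences, without gene models, ribosomal, mitochondrial, immunoglobulin, sex-linked marker and gate genes or genes at a higher level in Ptprc-positive cells, judged in whichever library had more. That last condition removed 28 of 73 higher and 23 of 40 lower candidates. For the contrasts with other cells it was the 8 largest each way, and for each list up to 4 members along its median and 2 against it. Items withheld for evaluation are not reported here.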

Additional observations from a re-analysis of the deposited data

Results flagged for a closer look

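Of the 4891 genes compared, 2 differed 2-fold between genotypes in opposite directions in the 2 states. Hopx, a homeodomain-only factor of type 1 cells, had a log2 fold of −1.08 post-depletion, at 76.6 CPM in KP and 35.7 in KPF1F2 members, and of 1.51 pre-depletion, at 45.04 and 130 CPM. Cxcl2, a neutrophil chemokine, had a log2 fold of 1.76 post-depletion, at 5.02 and 19.3 CPM, and of −1.57 pre-depletion, at 58.2 and 18.9 CPM. Ptprc-positive cells pre-depletion held Cxcl2 at 1828 and 2643 CPM. With 1 library per group the difference between states was not tested for either gene.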

How the results depend on the processing

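With 1 library per group, no replicate could be left out. No paired analysis was possible because the groups share fewer than 2 replicate numbers. The number of genes 2-fold higher in both states (77) was 52 to 95 under 17 of 18 alternatives and 185 with no minimum CPM. The number lower (49) was 94 with equal weight per cell, 18 with a minimum mean of 50 CPM, 358 with no minimum and 28 without members with a Cdkn2a, Meg3, Basp1 or Bgn UMI. Post-depletion the higher count (152) was 411 with no minimum, and the lower count (103) was 41 at 50 CPM, 802 with no minimum and 48 without those members. Of the genes called, 61.1% were higher, against 50.3% with equal weight per cell, 74.3% at 50 CPM, 34.1% with no minimum and 73.6% without those members. TMM factors gave 77 and 45 and DESeq2 size factors 78 and 46. The last-named alternative, and that on macrophage UMIs, were added after the data were seen. Of the 24 named genes, 22 kept their sign in every alternative run and 19 stayed past 2-fold.

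The share of surfactant-high cells with no engineered transcript was 79.6% in KP pre-depletion and 91.2% after thinning, and 83.6% and 90.2% in KP post-depletion. In KPF1F2 pre-depletion it was 94.5%, and 100% at 10% Sftpc. In KPF1F2 post-depletion it was 91.9%, and 95.3% on CRE-ERT2 alone, 96.1% after thinning, 96.1% at 10% Sftpc and 87.7% at 2% Sftpc.

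Without members with a Mki67 or Top2a UMI, the median of cell division genes post-depletion was −0.084, and log2 folds reversed to −0.53 for Ube2c and −1.55 for Cdk1 post-depletion, −0.56 and −0.45 for Birc5 post- and pre-depletion, and −0.65 for Cenpf and −0.82 for Cdk1 pre-depletion. With equal weight per cell Mki67 stood at −0.053 post-depletion. Without members with a Cdkn2a, Meg3, Basp1 or Bgn UMI, Top2a stood at −0.35, Dcn at 0.88 and Ckb at 0.0018 pre-depletion, and Dusp6 at 0.28 and Id1 at 0.14 post-depletion. Both depth and the small KPF1F2 pre-depletion group of 52 members limit these values.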

Other observations

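Hp, the haemoglobin-binding protein haptoglobin, was at 385 and 807 CPM in KP and KPF1F2 members pre-depletion and at 320 and 862 post-depletion, while CRE-ERT2-positive KPF1F2 cells held 20.04 and 21.8 CPM. Of 11 measured genes of the transitional alveolar state, 2 were 2-fold higher in KPF1F2 members in both states and 0 lower, with medians of 0.51 and −0.09. Of all genes compared 1.57% were higher and 1.00% lower in both states. Of 18 type 1 genes, 0 passed in the same direction in both states, with medians of 0.28 and −0.01. Post-depletion, 3 of the 18, among them Hopx, were 2-fold lower. The 2 transitional genes were Cdkn1a and Sfn. Cdkn1a, the p21 cell cycle inhibitor, stood at 40.2, 97.1, 44.9 and 119 CPM, and Sfn, the 14-3-3 protein sigma, at 46.3, 130, 78.0 and 176 CPM. EGFP, an added feature, had 0 UMIs in members of all 4 libraries.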
